A study of Mus musculus with 12 samples.

Results

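The integrins described here are 10 subunit genes, Itga1, Itga3, Itga5, Itga6, Itga7, Itga9, Itgav, Itgb1, Itgb5 and Itgb8, taken by gene symbol from the 23238 genes counted. They are non-leukocyte subunits, receptors for the matrix on which axons grow, and all 10 had a row in every library; 9 of them passed the filter on low counts, as did 15036 genes in all. Polyadenylated RNA was read from the 3′ end in dorsal root ganglia of lumbar levels 3 to 5, where the sensory neurons of the sciatic nerve have their cell bodies. The C57BL/6 mice were 8 weeks old, and the groups were Female SNI, Female sham, Male SNI and Male sham, where SNI is sciatic nerve injury and sham is the control operation, with 3 libraries in each group. The labels name no other genotype or agent in any group, and the kind of injury and the time from injury to dissection were not stated. The labels do not say that the libraries of a group came from separate animals, so p-values cover only the spread among these libraries, and that spread may be technical.

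An integrin is a heterodimer of an alpha and a beta chain that spans the cell membrane, binds matrix proteins outside the cell and connects through talin and kindlin to actin inside it. The alpha chain largely sets the ligand. The chains of Itga3, Itga6 and Itga7 pair with that of Itgb1 as laminin receptors, that of Itga1 as a collagen receptor, that of Itga5 as a fibronectin receptor and that of Itga9 as a receptor for tenascin-C, while Itgav pairs with several beta chains in receptors for vitronectin, fibronectin and latent TGF-beta. In adult peripheral sensory neurons laminin and fibronectin are the main growth-promoting substrates, and laminin-binding integrins are known from rodent work as part of the growth response to nerve injury.

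Each library held 12476606 to 15520746 counts, and 3 counts stood for 0.193 to 0.2405 CPM (counts scaled to a common library total). Levels below are CPM on library totals scaled by the trimmed mean of M values (TMM), and log2 changes are SNI minus sham with the standard error (SE) of the model. Atf3, which injured sensory neurons switch on and which checks the labels, was at 275 to 361 CPM in the SNI libraries and at 43.6 to 56.7 CPM in the sham libraries. The 10 markers of sensory neurons summed to 11908 to 12588 CPM in Female SNI and 13714 to 15290 CPM in Female sham libraries, lower after SNI. In males the sums were 12671 to 15769 CPM after SNI and 12286 to 13588 CPM after sham, with the higher mean after SNI. The 8 satellite glia markers summed to 5351 to 8296 CPM in SNI and 4395 to 5950 CPM in sham libraries of both sexes. Male SNI replicate 2 and Female sham replicate 2 stood apart on the first principal component of log2 CPM, at 99.93 and 47.47 against -32.8 to 0.9629 for the others. Male SNI replicate 1 held skeletal muscle transcripts, with 8 markers summing to 1629.8 CPM, against 5.46 to 73.8 CPM in the other 11 libraries. In whole ganglia, fewer cells of a type and less RNA per cell cannot be told apart.

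Averaged over the sexes, Itga7, Itgb1 and Itgb5 rose after injury and none of the 9 tested subunits fell. These are 3 called subunits of the 9 tested, at a Benjamini-Hochberg adjusted p below 0.05 in edgeR's quasi-likelihood test. Of all tested genes 6.52% were called, 3.78% higher and 2.73% lower. The members were chosen with earlier results of these data known, so their share cannot be weighed against that of all genes. The median log2 change of the 9 was 0.32, beside 0.00 over all tested genes. By sex it was -0.04 in females, with 4 of 9 estimates above 0, and 0.39 in males, with 9 of 9 above 0, beside 0.01 and 0.00 over all tested genes. The count in males rested in part on Male SNI replicate 2, without which the male estimate of Itgav was -0.15 and that of Itga3 0.21. In females the same 3 subunits were called, where 2.89% of all genes were called and 1.6% were called higher, and in males only Itga7, where 2.13% were called and 1.65% higher. The SNI libraries lay above the sham libraries with no overlap within each sex for 2 subunits, Itga7 and Itgb5, against 3.67% of all tested genes. Summed over the 10 subunits the level was 1103 ± 65.5 CPM in SNI and 694 ± 39.4 CPM in sham libraries (SD, n = 6 each), and the ranges of 1004 to 1173 CPM and 647 to 753 CPM did not overlap. Most of that difference lay in Itga7, with means of 432 and 172 CPM, and Itgb1, with 439 and 307 CPM. The sum therefore mainly restates these genes and is not a rise of the family as a whole.

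**Figure D1:**
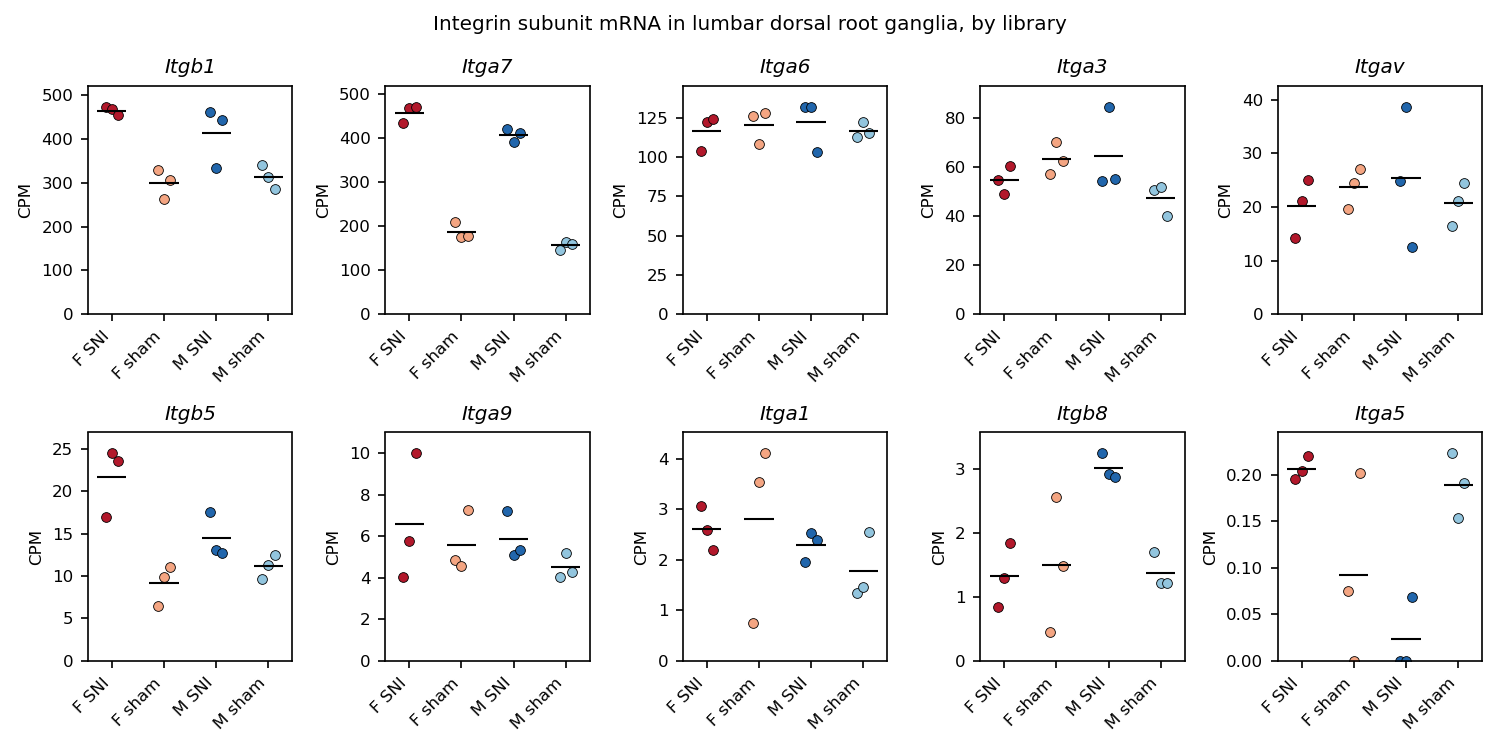
CPM of each integrin subunit in the 12 libraries (points) with the group mean (line), F for females and M for males, each panel on its own linear axis from 0. Itga7 is at 391 to 471 CPM in the SNI and 145 to 210 CPM in the sham libraries, whereas the points of Itga6 overlap in all 4 groups.

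Itga7, the chain of a laminin receptor best known from skeletal muscle and also made by sensory neurons, changed the most of the 9 tested subunits. It had 434, 468 and 471 CPM in Female SNI libraries, against 210, 176 and 177 CPM in Female sham libraries. In Male SNI libraries it had 420, 391 and 411 CPM, against 145, 165 and 159 CPM in Male sham libraries. Every SNI library was above every sham library, as for 2.79% of all tested genes, and the SNI libraries of a sex lay within a narrow band. The log2 change was 1.33 ± 0.08 averaged over the sexes, a 2.52-fold rise (edgeR, adjusted p = 1.84e-07), with 1.29 ± 0.11 in females (adjusted p = 2.24e-05) and 1.38 ± 0.11 in males (adjusted p = 1.27e-05). The difference between the sexes, males minus females, was 0.09 ± 0.16 (adjusted p = 0.844). Without Male SNI replicate 1, the library with muscle transcripts, the change of this muscle-expressed gene was 1.32 averaged over the sexes and 1.36 in males.

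Itga7 lies on chromosome 10 (GRCm38, 128933421 to 128958286, plus strand, in RefSeq), and its last exon meets that of Mettl7b, a methyltransferase-like gene on the minus strand, end to end. In GENCODE vM21 Itga7 ends at 128958282 and Mettl7b, which runs the other way, ends at 128958274, so that the exons share 9 bases. The kit reads 3′ ends and the labels do not say how strand was treated in counting, so reads at this junction cannot be told apart and both values are uncertain to that extent. Mettl7b had 118, 129 and 138 CPM in Female SNI, 71.1, 57.8 and 59.9 CPM in Female sham, 130.2, 131 and 111 CPM in Male SNI and 47.9, 53.6 and 46.9 CPM in Male sham libraries. Averaged over the sexes Mettl7b rose by 1.18 ± 0.09 (edgeR, adjusted p = 2.59e-06). With all Mettl7b counts taken off those of Itga7 in every library, a setting chosen after seeing the data, the log2 change of Itga7 was 1.40 (edgeR, adjusted p = 1.77e-07). Mettl7b was lower than Itga7 in every library and rose less, so the subtraction had to leave a rise. It cannot show which gene the reads at the junction came from. The remainder was 261 to 339 CPM in SNI and 97.2 to 139 CPM in sham libraries.

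The other laminin-binding alpha chains did not pass the test. Itga6, which also serves in the laminin receptor of Schwann cells and epithelia, had 104, 122 and 124 CPM in Female SNI and 126, 108 and 128 CPM in Female sham libraries. In males it had 132, 132 and 103 CPM after SNI and 113, 122 and 115 CPM after sham. The groups overlapped in both sexes, with a change of 0.01 ± 0.09 (edgeR, adjusted p = 0.975).

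Itga3, a receptor chain for laminins of basement membranes, had 55.0, 49.3 and 60.7 CPM in Female SNI and 57.2, 70.5 and 62.7 CPM in Female sham libraries. In males it had 54.4, 84.8 and 55.3 CPM after SNI and 50.6, 52.0 and 40.3 CPM after sham. The male groups did not overlap, which was so in the same direction for 9.09% of all tested genes, and the female groups did overlap. The high value among Male SNI libraries is replicate 2, which stands apart over all genes. Its change was 0.12 ± 0.13 averaged over the sexes (edgeR, adjusted p = 0.713), -0.21 ± 0.18 in females and 0.45 ± 0.18 in males (adjusted p = 0.665 and 0.271). The difference between the sexes was 0.65 ± 0.26, with an unadjusted p of 0.0237 from the edgeR model and an adjusted p of 0.647. Without Male SNI replicate 2 that difference was 0.41 and the change in males 0.21.

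With Itga7 higher and Itga6 and Itga3 near their sham levels, the make-up of the alpha-chain mRNA differed between SNI and sham libraries. Taken as CPM per kilobase of the longest coding transcript in GENCODE vM21, Itga7 made up 70.8 ± 3.65% of the summed 7 alpha subunits in SNI and 49.8 ± 2.31% in sham libraries (SD, n = 6 each). Itga6 made up 18.2 ± 1.59% in SNI and 32.2 ± 2.38% in sham libraries, and Itga3 8.13 ± 1.75% in SNI and 13.3 ± 2.03% in sham libraries. A share falls when another member rises, so these shares restate the rise of Itga7. On plain CPM, which 3′ reads do not tie to length, the share of Itga7 was 67.3% in SNI and 45.7% in sham libraries. The ratio of Itga7 to Itga6 CPM was 3.79 to 4.15 in Female SNI, 1.38 to 1.67 in Female sham, 2.96 to 4.0 in Male SNI and 1.28 to 1.39 in Male sham libraries.

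**Figure D2:**
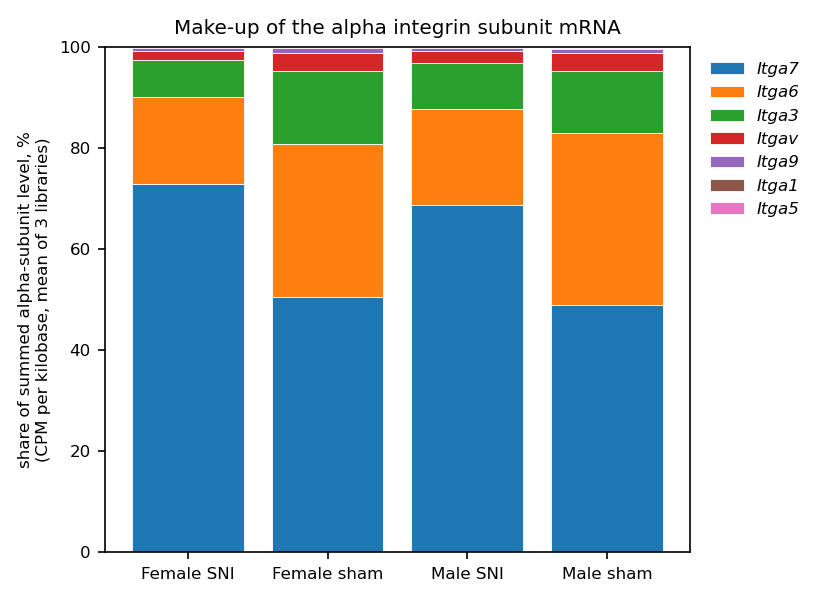
Stacked bars of the share of each alpha subunit in the summed level of the 7 alpha subunits, in percent of CPM per kilobase, as means of 3 libraries in each of the 4 groups. Itga7 takes 72.8% in Female SNI and 50.6% in Female sham, and 68.7% in Male SNI and 48.9% in Male sham libraries.

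Itgav, the chain of the RGD-binding receptors for vitronectin and fibronectin, had 14.3, 21.1 and 25.0 CPM in Female SNI and 19.7, 24.4 and 27.0 CPM in Female sham libraries. In males it had 24.9, 38.7 and 12.5 CPM after SNI and 16.4, 21.2 and 24.4 CPM after sham. The Male SNI libraries spanned the lowest and the highest value of all 12. The change was 0.03 ± 0.23 (edgeR, adjusted p = 0.977), and in males it was 0.29 ± 0.33, but -0.15 without Male SNI replicate 2. Exons of Itgav overlap those of a predicted gene on the other strand over 634 bases, so its value is uncertain.

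Itga9, a receptor chain for tenascin-C that is low in adult sensory neurons of rodents, had 4.03 to 9.99 CPM in SNI and 4.01 to 7.28 CPM in sham libraries, with medians of 5.56 and 4.7 CPM. The ranges overlapped and the change was 0.31 ± 0.24 (edgeR, adjusted p = 0.568). Itga1, the chain of a collagen and laminin receptor, had 1.95 to 3.06 CPM in SNI and 0.749 to 4.11 CPM in sham libraries, with medians of 2.47 and 2.0 CPM and a change of 0.13 ± 0.38 (edgeR, adjusted p = 0.921). Its lowest and highest values both came from Female sham libraries. Exons of Itga1 overlap those of a predicted gene on the same strand over 685 bases, so its value is uncertain.

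Itga5, the fibronectin receptor chain, was the 1 member that did not pass the filter on low counts. It had 3 counts in each Female SNI library, 1, 0 and 3 counts in Female sham, 0, 0 and 1 counts in Male SNI and 3, 2 and 3 counts in Male sham libraries. No library had more than 3 counts, so a difference was not detectable at this depth and no fold is given.

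RefSeq promoters on GRCm38.p6 were found for 8 of the 10 members, with 9 entries; those of Itga6 and Itga7 were not among them. The 250 bases before the start are shown for the beta chains, of which Itgb1 and Itgb5 were called and Itgb8 was not, since they are the partners of the alpha chains above. Capitals mark the Sp1 box, GGGCGG, on either strand, and the windows lie at chr8:128685404-128685653 on the plus strand, chr16:33829415-33829664 on the plus strand and chr12:119238277-119238526 on the minus strand.
Itgb1: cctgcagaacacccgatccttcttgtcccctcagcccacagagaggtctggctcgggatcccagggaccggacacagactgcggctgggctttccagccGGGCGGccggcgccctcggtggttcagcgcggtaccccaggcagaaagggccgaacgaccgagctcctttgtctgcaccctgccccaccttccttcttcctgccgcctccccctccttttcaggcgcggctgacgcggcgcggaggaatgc
Itgb5: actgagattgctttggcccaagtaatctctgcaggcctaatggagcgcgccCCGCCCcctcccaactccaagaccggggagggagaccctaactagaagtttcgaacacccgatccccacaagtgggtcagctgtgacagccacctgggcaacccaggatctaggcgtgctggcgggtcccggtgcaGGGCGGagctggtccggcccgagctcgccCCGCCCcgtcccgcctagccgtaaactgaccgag
Itgb8: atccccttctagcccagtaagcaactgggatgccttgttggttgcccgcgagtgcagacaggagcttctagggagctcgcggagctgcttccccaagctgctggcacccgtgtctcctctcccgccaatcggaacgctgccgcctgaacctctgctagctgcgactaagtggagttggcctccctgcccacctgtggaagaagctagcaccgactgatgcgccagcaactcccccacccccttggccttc
The Itgb1 window held 1 Sp1 box, that of Itgb5 held 3 and that of Itgb8 held none, where 32.7% of all 32851 promoter windows held at least 1. The AP-1 motif TGANTCA, bound by Jun and Atf3 dimers, and the cyclic AMP response element TGACGTCA were searched on both strands. Neither was found in the 9 windows of the members, and they stood in 6.75% and 1.55% of all windows. The windows of Itga9, of Itgav and of the second Itga3 entry lay inside the gene as annotated. That of Itga9 began at 118711442, against a gene start of 118606709. For Itga9 and Itgav the bases before the outermost start were not searched. The windows of Itgb1, Itgb5 and Itgb8 were rich in G and C, at 68%, 65.2% and 62.4%. A match is a description of the letters only.

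Itgb1, the beta chain shared by the laminin, collagen and fibronectin receptors above, rose. It lies on chromosome 8 (GRCm38, 128685654 to 128733579, plus strand). It had 474, 468 and 454 CPM in Female SNI, against 329, 264 and 307 CPM in Female sham libraries. In Male SNI libraries it had 462, 333 and 444 CPM, against 341, 314 and 287 CPM in Male sham libraries. The female groups did not overlap, as for 13.1% of all tested genes, and the male groups overlapped through Male SNI replicate 2. The change was 0.51 ± 0.10 averaged over the sexes, a 1.43-fold rise (edgeR, adjusted p = 0.00501), with 0.63 ± 0.14 in females (adjusted p = 0.0232) and 0.40 ± 0.14 in males (adjusted p = 0.185). Without Male SNI replicate 2 the change in males was 0.53 and passed (edgeR, adjusted p = 0.0105). In females the call ended when any 1 of the 3 SNI libraries, Female sham replicate 2 or Female sham replicate 3 was left out, at 0.55 to 0.65 on the log2 scale. The difference between the sexes was -0.24 ± 0.19 (edgeR, adjusted p = 0.699).

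The balance between Itga7 and its partner differed as well, in that the ratio of Itga7 to Itgb1 CPM was 0.909 to 1.17 in SNI and 0.425 to 0.668 in sham libraries. The ratio of the summed 7 alpha subunits to Itgb1 was 1.3, 1.43 and 1.53 in Female SNI, 1.27, 1.47 and 1.32 in Female sham, 1.39, 1.96 and 1.33 in Male SNI and 0.969, 1.17 and 1.2 in Male sham libraries. It overlapped between the female groups and not between the male groups, where replicate 2 after SNI was the highest.

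Itgb5, a partner of Itgav in a vitronectin receptor, rose as well (chromosome 16, GRCm38, 33829665 to 33949338, plus strand). It had 17.0, 24.5 and 23.6 CPM in Female SNI, against 6.44, 9.83 and 11.1 CPM in Female sham libraries. In Male SNI libraries it had 17.6, 13.1 and 12.7 CPM, against 9.65, 11.3 and 12.5 CPM in Male sham libraries. The groups did not overlap in either sex, but in males the gap between the nearest libraries was narrow, 12.7 against 12.5 CPM. The change was 0.81 ± 0.17 averaged over the sexes, a 1.76-fold rise (edgeR, adjusted p = 0.0112), with 1.25 ± 0.25 in females (adjusted p = 0.0145) and 0.37 ± 0.24 in males (adjusted p = 0.526). Males minus females gave -0.88 ± 0.34, with an unadjusted p of 0.0239 from the edgeR model and an adjusted p of 0.647, so the larger estimate in females did not pass as a difference between the sexes. In females the call ended without SNI replicate 2, SNI replicate 3 or sham replicate 1, at 1.15, 1.19 and 1.05 on the log2 scale.

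Macrophage transcripts also rose after injury. Among 12 macrophage markers, 10 were called higher and 0 lower (median 1.16 on the log2 scale), where 6.52% of all tested genes were called. Their summed level was 298 to 487 CPM in SNI and 134 to 209 CPM in sham libraries. Among them Csf1r, the receptor of the macrophage growth factor, was at 1.28 ± 0.17 and Ctss, a lysosomal protease, at 1.31 ± 0.16 (edgeR, adjusted p = 0.00031 and 0.000169); exons of Csf1r overlap those of Hmgxb3 on the other strand, so its value is uncertain. None of 8 fibroblast, 8 endothelial, 8 mural cell or 8 Schwann cell markers was called in injury averaged over the sexes. Their medians were 0.13, 0.16, 0.22 and 0.09 in that order. Among 10 sensory neuron markers 1 was called higher and 3 lower (median -0.14), and among 8 satellite glia markers 1 was called higher (median 0.12). The part of these cells in the rise of Itga7, Itgb1 and Itgb5 was not tested.

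Itgb8, which pairs with Itgav in a receptor that activates latent TGF-beta, had 0.845, 1.29 and 1.84 CPM in Female SNI and 0.45, 2.57 and 1.48 CPM in Female sham libraries. In males it had 3.25, 2.92 and 2.88 CPM after SNI and 1.71, 1.22 and 1.21 CPM after sham. The male groups did not overlap, which was so in the same direction for 9.09% of all tested genes, and the female groups did overlap. At 38 to 42 counts in each Male SNI and 16 to 23 counts in each Male sham library, the change in males was 1.12 ± 0.58 (edgeR, adjusted p = 0.403). It was -0.18 ± 0.59 in females and 0.47 ± 0.41 averaged over the sexes (edgeR, adjusted p = 0.924 and 0.628). The difference between the sexes was 1.31 ± 0.83 (edgeR, adjusted p = 0.659), and 0.68 without Female sham replicate 2.

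**Figure D3:**
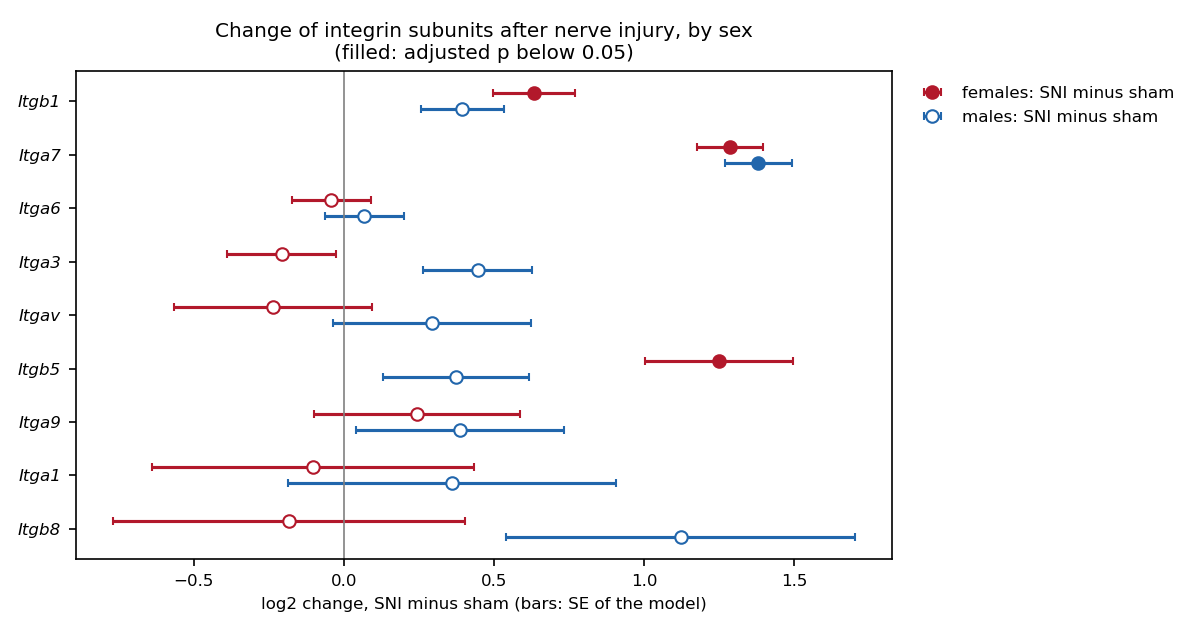
Log2 change of the 9 tested integrin subunits in females (red) and males (blue), SNI minus sham, as points with the SE of the model as bars; filled points passed an adjusted p of 0.05. Itga7 lies at 1.29 in females and 1.38 in males, while Itgb5 lies at 1.25 in females and 0.37 in males.

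Across the 9 subunits none passed the test of a difference between the sexes in the response to injury, nor did any gene of the 15036 tested in edgeR, which is 0.0% of them. An unadjusted p below 0.05 was found for 1100 genes, or 7.32%, and DESeq2 and limma-voom called 0 genes too. That count was 675 without Female sham replicate 2 and 2839 without Male SNI replicate 3, with 0 genes called in both fits. Between Male sham and Female sham libraries no subunit was called, where 0.0399% of all genes were called, and the estimates lay between -0.65 for Itga1 and 0.29 for Itgb5. Itga7 was at 157 ± 10.4 CPM in Male sham and 188 ± 19.2 CPM in Female sham libraries (SD, n = 3 each), a difference of -0.26 ± 0.11 (edgeR, adjusted p = 0.938).

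Since counting by 3′ reads does not tie a level to transcript length, the order of the levels was taken both as CPM and as CPM per kilobase of the longest coding transcript, and in sham libraries both gave the same order. From high to low it was Itgb1, Itga7, Itga6, Itga3, Itgav, Itgb5, Itga9, Itga1, Itgb8 and Itga5, with sham means of 80.5, 42.8, 27.5, 11.4, 3.14, 3.09, 0.716, 0.209, 0.171 and 0.0321 CPM per kilobase. Of the neighbours in this order, Itgav and Itgb5 overlapped in sham libraries, at 2.33 to 3.82 and 1.96 to 3.8 CPM per kilobase, as did Itga1 and Itgb8, at 0.0683 to 0.375 and 0.0535 to 0.306. After SNI, Itgb1 at 87.4 to 124 and Itga7 at 97.4 to 117 CPM per kilobase overlapped, which they did not in sham libraries, at 69.2 to 89.4 and 36.1 to 52.2.

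By Pearson's correlation of log2 CPM over the 12 libraries, among 10850 other tested genes with a mean of at least 5 CPM, the 5 genes most like Itga7 were Flrt3, a transmembrane cell-adhesion protein (r = 0.995), Mettl7b (0.988), Sprr1a, a gene linked to axon outgrowth (0.985), Smim3 (0.981) and the neuropeptide gene Gal (0.981). Flrt3 had 192, 186 and 198 CPM in Female SNI, 51.2, 47.0 and 43.3 CPM in Female sham, 166, 159.5 and 180.4 CPM in Male SNI and 38.2, 39.8 and 40.5 CPM in Male sham libraries. As with Itga7, every SNI library of Flrt3 lay above every sham library, which was so for 2.79% of all tested genes. Flrt3 was picked by its correlation with Itga7 over these libraries, so a like pattern had to follow. For Itgb1 the 5 were Rnase4 (0.973), S100a10, a partner of annexin A2 (0.967), Cyb5r3 (0.965), the tropomyosin gene Tpm4 (0.963) and Esd (0.958). Among the subunits themselves, Itga7 correlated at 0.868 with Itgb1 and at 0.754 with Itgb5, and between -0.0505 and 0.43 with the other 6 tested. The 12 libraries share the split into SNI and sham, and these correlations are given as a description with no test. Exons of Mettl7b and Itga7 share 9 bases where reads cannot be told apart, so their correlation is uncertain to that extent.

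Of the integrin genes outside the 10, 1 was called in injury averaged over the sexes, where 6.52% of all tested genes were called. None of 7 tested other non-leukocyte subunits was called, and the most abundant, Itgb4, the beta chain of hemidesmosomes, was at 29.1 ± 8.33 CPM in SNI and 30.6 ± 4.39 CPM in sham libraries (SD, n = 6 each; edgeR, adjusted p = 0.888). Of 8 leukocyte subunits only Itgam, the CD11b chain of myeloid cells, was called, with 5.53 to 7.12 CPM in SNI and 2.74 to 4.92 CPM in sham libraries and a change of 0.80 ± 0.21 (edgeR, adjusted p = 0.0385). Itgam passed in 2 of 12 fits with 1 library left out, those lacking Female sham replicate 2 and Male SNI replicate 2. The call of Itgam also ended under the replicate block and with no filter on low counts (edgeR, adjusted p = 0.0556 and 0.0582). Exons of Itgam overlap those of a predicted gene on the same strand over 3450 bases, so its value is uncertain. Itga4, the most abundant leukocyte subunit, was at 9.46 ± 1.74 CPM in SNI and 9.25 ± 0.814 CPM in sham libraries, and 1124 bases of its exons overlap Cerkl on the other strand.

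Of all tested genes 6.52% were called averaged over the sexes. In the machinery that activates integrins and links them to actin 1 of 35 tested genes was called, or 2.86%, with a median of 0.04. That gene was Git1, a scaffold that turns over focal adhesions, with 65.4 to 105 CPM in SNI and 51.4 to 66.9 CPM in sham libraries and a change of 0.40 ± 0.11 (edgeR, adjusted p = 0.0499). With 1 library left out, Git1 passed only where that was Male SNI replicate 2 or 3. The call of Git1 also ended under the replicate block and with no filter on low counts (edgeR, adjusted p = 0.0574 and 0.0541). Talin genes, whose proteins bind beta-chain tails, gave 0.30 ± 0.13 for Tln1 and -0.44 ± 0.19 for Tln2 (edgeR, adjusted p = 0.233 and 0.218), and the values for focal adhesion kinase, Ptk2, and integrin-linked kinase, Ilk, were 0.04 ± 0.25 and 0.06 ± 0.09 (edgeR, adjusted p = 0.969 and 0.841). Exons of Tln1 overlap Creb3 and those of Ilk overlap Taf10 on the other strand, so both are uncertain. In the female contrast Rap1b, a small GTPase that recruits talin and is named here after its value was seen, was called at 0.67 ± 0.15 (edgeR, adjusted p = 0.0242). It averaged 115 CPM in Female SNI, 72.5 CPM in Female sham, 87.3 CPM in Male SNI and 85.4 CPM in Male sham libraries. Averaged over the sexes Rap1b was at 0.35 ± 0.10 and the difference between the sexes was -0.64 ± 0.21, and neither passed (edgeR, adjusted p = 0.0591 and 0.647). None of 7 genes listed as integrin inhibitors was called (median 0.11). That list includes Mdfi, the MyoD family inhibitor, which is not an established integrin inhibitor. The most abundant of the list, Flna, which competes with talin for the beta tail, was at 0.19 ± 0.12 (edgeR, adjusted p = 0.448). Tns1, a tensin, averaged 222 CPM in SNI and 238 CPM in sham libraries, with a change of -0.10 ± 0.13 (edgeR, adjusted p = 0.775). It had the highest mean CPM of the activating machinery in sham libraries, whereas in SNI libraries Tln1 did, at 234 CPM.

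Among 9 membrane proteins that associate with integrins 2 were called, both higher, where 3.78% of all tested genes were called higher. The list median was 0.04. Cd63, a tetraspanin of late endosomes, was at 356 to 395 CPM in Female SNI, 185 to 197 CPM in Female sham, 222 to 378 CPM in Male SNI and 140.1 to 190 CPM in Male sham libraries, with a change of 0.92 ± 0.12 (edgeR, adjusted p = 0.00031). Its groups did not overlap in either sex, as for 3.67% of all tested genes. Plaur, the urokinase receptor, was at 3.33 to 7.86 CPM in SNI and 1.08 to 3.77 CPM in sham libraries, with a change of 1.12 ± 0.29 (edgeR, adjusted p = 0.0316), and with 1 library left out it passed only where that was Male sham replicate 2 or Male SNI replicate 1 or 2. Cd151, a tetraspanin of laminin-binding integrins, averaged 314 CPM in SNI and 318 CPM in sham libraries, with a change of -0.02 ± 0.08 (edgeR, adjusted p = 0.938). It had the highest mean CPM of the list in sham libraries, whereas in SNI libraries Cd63 did, at 341 CPM.

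In the list of ligand genes 1 of 30 tested was called, or 3.33%, with a median of 0.05, where 6.52% of all tested genes were called. That gene was Lgi4, a protein secreted by Schwann and satellite cells and not itself an established integrin ligand. It had 61.1 to 92.2 CPM in SNI and 44.8 to 69.5 CPM in sham libraries and a change of 0.44 ± 0.10 (edgeR, adjusted p = 0.0195). The call was lost in 5 of 12 fits with 1 library left out, those lacking Female SNI replicates 1 and 2, Female sham replicate 1 and Male sham replicates 1 and 3, and exons of Lgi4 overlap Fxyd3 on the other strand over 2059 bases, so its value is uncertain. Laminin chains, the ligands of Itga7, Itga6 and Itga3, included Lama2 at -0.33 ± 0.15, Lama4 at 0.09 ± 0.14, Lamb2 at 0.04 ± 0.18 and Lamc1 at 0.14 ± 0.21 (edgeR, adjusted p = 0.259 to 0.957). The other laminin chains listed, Lamb1, Lama5 and Lama1, were not called. They averaged 99.6, 2.8 and 1.21 CPM in SNI and 95.9, 1.76 and 1.26 CPM in sham libraries. The log2 change was 0.07 ± 0.19 for fibronectin, Fn1, -0.22 ± 0.36 for tenascin-C, Tnc, and 0.39 ± 0.19 for osteopontin, Spp1 (edgeR, adjusted p = 0.916, 0.835 and 0.293). The most abundant ligand gene, Col1a2, a collagen type I chain, averaged 857 CPM in SNI and 957 CPM in sham libraries (edgeR, adjusted p = 0.82).

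**Figure D4:**
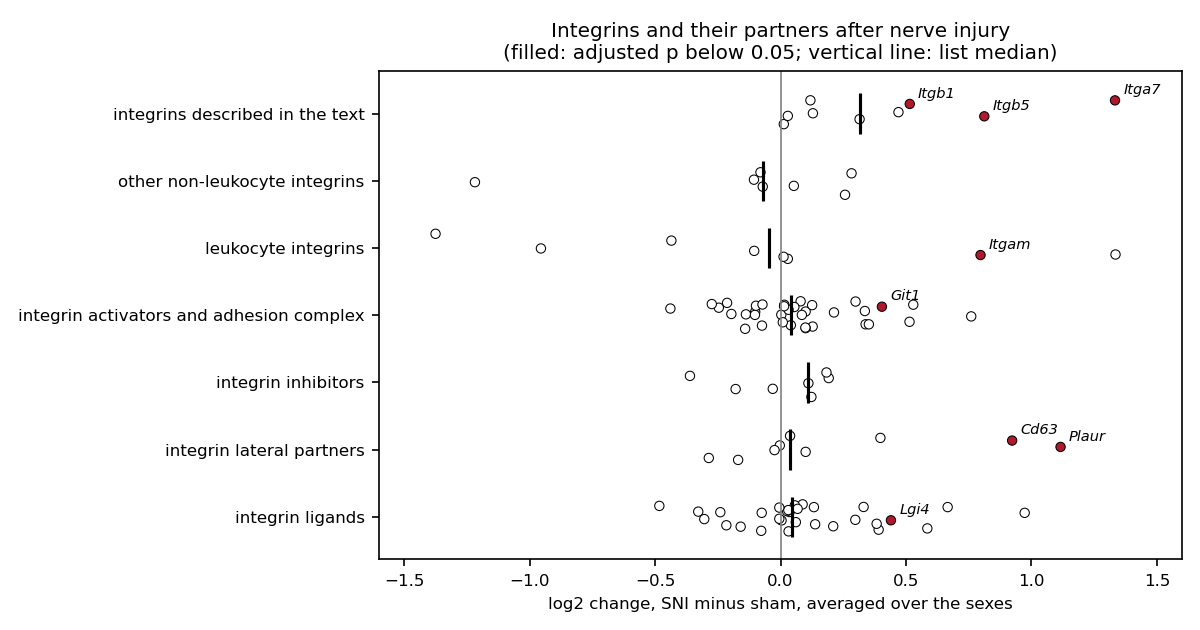
Log2 change averaged over the sexes, SNI minus sham, of each tested gene in 7 lists (points; filled where the adjusted p was below 0.05) with the median of each list as a vertical line. The filled points are all above 0, and of these Itga7 at 1.33, Plaur at 1.12 and Cd63 at 0.92 lie farthest to the right.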

How the data were processed

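The authors deposited raw counts per gene symbol in a file for each library, per the file headers. Bowtie2, bedtools and the build mm10 are named in the submitters' processing notes; the libraries were made with a 3′ mRNA kit and read as single ends, per the labels' protocols. Treatment of strand, multiply mapped reads and duplicates is not stated in the sources used here. Each file had 23282 rows; 35 symbols on more than 1 row were summed, which left 23238. Cyr61 and Ctgf stand for Ccn1 and Ccn2. The chi-square per gene between replicates was 8.63 or more, where sampling alone gives about 1.

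Genes were kept by filterByExpr with a minimum count of 10, libraries were scaled by TMM, and all 12 libraries entered 1 edgeR 4.0.16 model (R 4.3.3) with 4 group means. Quasi-likelihood F tests, two-sided, were adjusted over all 15036 tested genes and called at an adjusted p below 0.05. The procedure was tested on simulated data. Folds are 2 to the power of the log2 change. Alternatives used DESeq2 1.42.0, limma 3.58.1, other scalings, no filter, a replicate block and fits without single libraries. Outside the 10 members, the text names in each list the called genes with the 4 largest increases and decreases and the gene with the highest mean CPM over all 12 libraries; talin, kinase, laminin, fibronectin, tenascin and osteopontin genes were added as familiar examples after their values were seen. The members and lists were chosen with earlier results of these data known. Intervals between libraries cover these libraries only, and the limit of 3 counts covers counting error only.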

Additional observations from a re-analysis of the deposited data

How the results depend on the processing

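Averaged over the sexes, Itga7, Itgb1 and Itgb5 were called under each alternative tried, with log2 changes of 1.31 to 1.38, 0.47 to 0.59 and 0.71 to 0.89 when 1 library was left out, and the count of called subunits was 3 in each. That count ranged from 1 to 3 in females and from 1 to 2 in males with 1 library left out. It was 2 in males with sample quality weights in limma-voom and without both libraries that stand apart, Male SNI replicate 2 and Female sham replicate 2, where Itgb1 joined at 0.51 and 0.54 (adjusted p = 0.0047 and 0.0015).

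The background of called genes moved more. With 1 library left out it was 626 to 1766 genes against 980 averaged over the sexes, 155 to 1176 against 435 in females, 137 to 601 against 321 in males, and 6 to 8 against 6 between the sham groups. DESeq2 called 738 genes in females, 647 in males and 11 between the sham groups. Sample quality weights gave 2008, 1562 and 693 genes averaged over the sexes, in females and in males, and leaving out both libraries that stand apart gave 1848, 986 and 698. Fits of 1 sex alone called 905 genes in females and 71 in males, where fewer libraries inform the spread. The causes were not tested.

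With the replicate number as a replicate block, 936 genes were called averaged over the sexes, against 980, and 3 subunits. Same-numbered SNI and sham libraries of a sex did not deviate together, with correlations of -0.0431 to 0.0824, and 2 of 6 SNI libraries correlated best with their own number. No subunit changed its call under the block. On totals without Rn45s the sham means of Itgb1 and Itga6 were 340.1 and 131 CPM. Depth limits Itga5, with at most 3 counts in a library, and leaves wide errors for Itga1 and Itgb8.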
